A study of Mus musculus with 12 samples.

Results

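The genes of presynaptic vesicle release were described across 12 libraries of mouse cortex. They were the rows of the deposited tables whose symbol was among 37 listed ones, from the synapsins and vesicle proteins to the SNAREs, active zone scaffolds and recycling enzymes. The list gave 38 of the 41388 rows, because Pclo occurs under 2 Ensembl IDs. The animals were adult C57Bl/6 mice of 2 lines with altered Grin1 exon 5, and each library came from its own numbered animal. The KI group carried Grin1-exon5+/+, in which the exon is constitutive (3 mice), and KI_WT were the wild types of that line (3 mice). The KO group carried Grin1-exon5-/- (3 mice), and KO_WT were the wild types of that line (3 mice). How the alleles were made, and how many founders each line has, is not given in the sources used here.

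Grin1 encodes GluN1, the obligatory subunit of NMDA-type glutamate receptors. Exon 5 is a cassette that adds a segment to the extracellular part of the protein. The genes described here act on the other side of the synapse. In a nerve terminal, vesicles are filled with transmitter, held in a cluster by synapsins and captured at the active zone by a scaffold of Bassoon, Piccolo, RIM, ELKS and Munc13 proteins. Vesicle and plasma membrane SNAREs then zipper together, complexins hold and aid the assembled bundle, and calcium binding to a synaptotagmin opens the fusion pore. NSF and its SNAP adaptors pull the spent SNAREs apart, and dynamin pinches membrane off for reuse. In cortex most terminals release glutamate and carry the vesicular transporter VGLUT1.

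Libraries held 31790970 to 36514024 counts, and the 38 rows took 1.5025% of them in KO 1 to 1.72% in KO 3. All 38 rows passed the filter on low counts, among 17441 genes tested. Grin1 itself had 334, 294 and 305 CPM (counts scaled to library size with TMM factors) in KI, against 333, 299 and 327 in KI_WT. The KO libraries had 269, 340.1 and 313 CPM, against 363, 329 and 308 for KO_WT. A count per gene does not check exon 5, since reads of the other exons enter it. Markers of cortical excitatory neurons (6 of 6 detected everywhere) summed to 292 to 357.8 CPM in KI and 256 to 437.5 in KI_WT, and to 245.5 to 385 in the KO group and 320 to 389.9 in its wild types. Pan-neuronal markers (9 genes) summed to between 4073 CPM in KO 1 and 4743 CPM in KO_WT 1. Markers of neighbouring tissue differed far more between libraries. The 7 olfactory bulb markers summed to 310 CPM in KI_WT 3, 143 in KO_WT 3 and 115 in KO 1, against 5.92 to 59.8 in the other 9 libraries. Among them Ms4a15 was at 0 in KI 1, KI_WT 1, KO 3, KO_WT 1 and KO_WT 2. The 9 choroid plexus markers summed to 22.3 to 33.1 CPM in KI_WT 3, KO_WT 1 and KO_WT 3, against 570 to 1953 in the other 9. The 8 thalamus markers summed to 166 to 308 CPM in KI and 87.1 to 101.05 in KI_WT, and to 101.3 to 272 in KO and 89.0 to 225 in KO_WT. Y-linked genes were expressed in 1 of 3 KI (KI 1), 2 of 3 KI_WT (KI_WT 2 and KI_WT 3), 1 of 3 KO (KO 3) and 3 of 3 KO_WT libraries. Both sexes were thus present, but unevenly. In KO against KO_WT only KO 3 shared the sex of the wild types, so sex and genotype cannot be fully told apart there. In whole tissue, fewer cells of a type and less RNA per cell cannot be told apart.

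The levels spanned more than 2 orders of magnitude on the deposited RPKM scale, which divides counts by gene length. Snap25 was the most abundant row, at 349 ± 38.6 RPKM in KI, 375 ± 35.6 in KI_WT, 375 ± 42.4 in the KO group and 379 ± 21.8 in KO_WT (mean ± SD, n = 3 each). It was 55th among the 17441 tested genes. A further 9 rows averaged above 100 RPKM over the 12 libraries. They were Cplx2 (253), Cplx1 (247), Slc17a7 (244), Vamp2 (216), Syp (204), Syt1 (179), Rab3a (138), Dnm1 (125) and Syn1 (109). Above 100 RPKM lay 10 of the 38 rows, and 2.38% of all tested genes. Another 22 rows lay between 10 and 100 RPKM, and 6 lay below 10 RPKM. The lowest were Syn3 (0.880), Sv2c (3.62), Unc13b (3.64), Syt2 (6.08), Cplx3 (6.39) and Doc2b (8.96), against a median of 4.452 RPKM over the tested genes. Neighbours in this order were not always apart. Cplx2 had 251 ± 7.41 RPKM in KI and Cplx1 had 249 ± 11.7, and the ranges of both over the 12 libraries overlapped (204 to 308 and 227 to 282 RPKM). Snap25 did not overlap with either in its lowest library (323 RPKM).

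**Figure D1:**
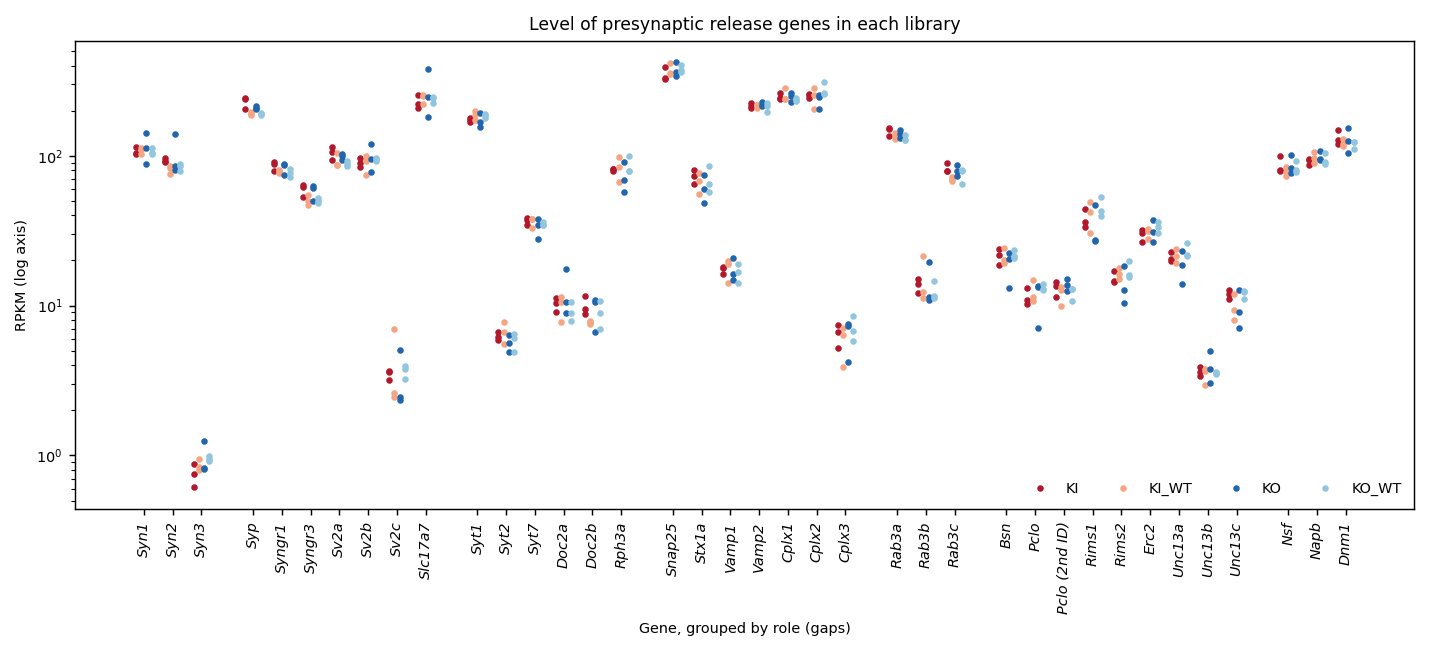
RPKM on a log axis (deposited values) of each presynaptic release gene in each of the 12 libraries, 1 point a library, coloured by group and set apart by role. Snap25 lies highest at 323 to 422 RPKM and Syn3 lowest at 0.611 to 1.26 RPKM, and the 4 groups overlap for most genes.

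In none of the 5 comparisons did any of the 38 rows pass the test. With edgeR's quasi-likelihood test and Benjamini-Hochberg adjustment over all tested genes at 0.05, 0 of 38 were called in KI against KI_WT, where 0% of all genes were called. The same holds for KO against KO_WT (0 of 38, against 0.00573% of all genes), KI against KO (0 of 38, against 0.00573%), KI_WT against KO_WT (0 of 38, against 0%) and the difference between the KI and KO effects (0 of 38, against 0.00573%). The smallest adjusted p among the rows was 0.705, 0.678, 0.905, 1 and 0.918 in that order. DESeq2 and limma on the RPKM values also called 0 of 38 in each. A missed threshold does not show that the groups were alike. The 95% intervals for KI against KI_WT reached 0.326 log2 units to either side in the median row and 0.783 in the widest, that of Sv2c.

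For KI against KI_WT, 15 rows had a higher mean in KI and 23 a lower one, with a median log2 fold change of -0.0353 beside -0.0054 over all genes. Only 1 row, Syp, had an unadjusted edgeR p under 0.05, which is 1 of 38 where 6.96% of all genes had one. In 4 rows (Syp, Syn2, Rab3c and Doc2b) the 3 KI libraries all lay above the 3 KI_WT libraries, and in 0 rows below. Groups did not overlap in either direction for 12.2% of all genes. Log2 fold changes lay between -0.25 (Syn3) and 0.32 (Doc2b). On the RPKM scale 21 of 38 rows were higher in KI, with a median of 0.0156 beside 0.0498 over all genes. Without KI_WT 1 the median turned to 0.0562, with 24 of 38 higher, and the other libraries left out in turn gave -0.0812 to 0.0107.

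For KO against KO_WT, 20 rows were higher and 18 lower on average, with a median of 0.0037 beside 0.0076 over all genes. The range was wider, from -0.47 (Rims1) to 0.37 (Doc2a). In 0 rows was the unadjusted edgeR p under 0.05, where 7.22% of all genes had one. Groups did not overlap in 3 rows, Syp and Sv2a higher and Cplx2 lower in KO, where 12.4% of all genes did not overlap. Without KO 2 the median over the rows was -0.0923, with 13 of 38 higher. It was -0.0841 with a term for the animal number range, with 12 of 38 higher, and 0.0541 on the RPKM scale. With a term for Y-linked expression it was -0.0203, with 18 of 38 higher.

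The 2 mutant groups were also set against each other. For KI against KO 21 rows were higher and 17 lower, with a median of 0.0196 beside 0.0026 over all genes. On the RPKM scale 25 were higher, with a median of 0.0525 beside 0.0217. Without KO 1 the median was -0.0385, with 14 of 38 higher, and without KO 2 it was 0.0747, with 27 of 38 higher. An unadjusted edgeR p under 0.05 occurred in 0 of 38 rows and in 5.43% of all genes. In 0 rows were the 2 groups apart, as they were in 10.2% of all genes. For KI_WT against KO_WT 15 rows were higher and 23 lower, with a median of -0.0294 beside 0.0002. Here 0 of 38 rows had an unadjusted p under 0.05, against 1.96% of all genes, and 0 were apart, against 7.31%. The difference of effects takes the fold change of KO over KO_WT from that of KI over KI_WT. It was positive in 21 rows and negative in 17, with a median of 0.0240 beside -0.0056. The median of this difference was -0.049 without KO 1, with 16 of 38 positive, and 0.1016 without KO 2, with 28 of 38 positive. Only 1 row, Unc13c, had an unadjusted edgeR p under 0.05, where 5.26% of all genes had one.

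**Figure D2:**
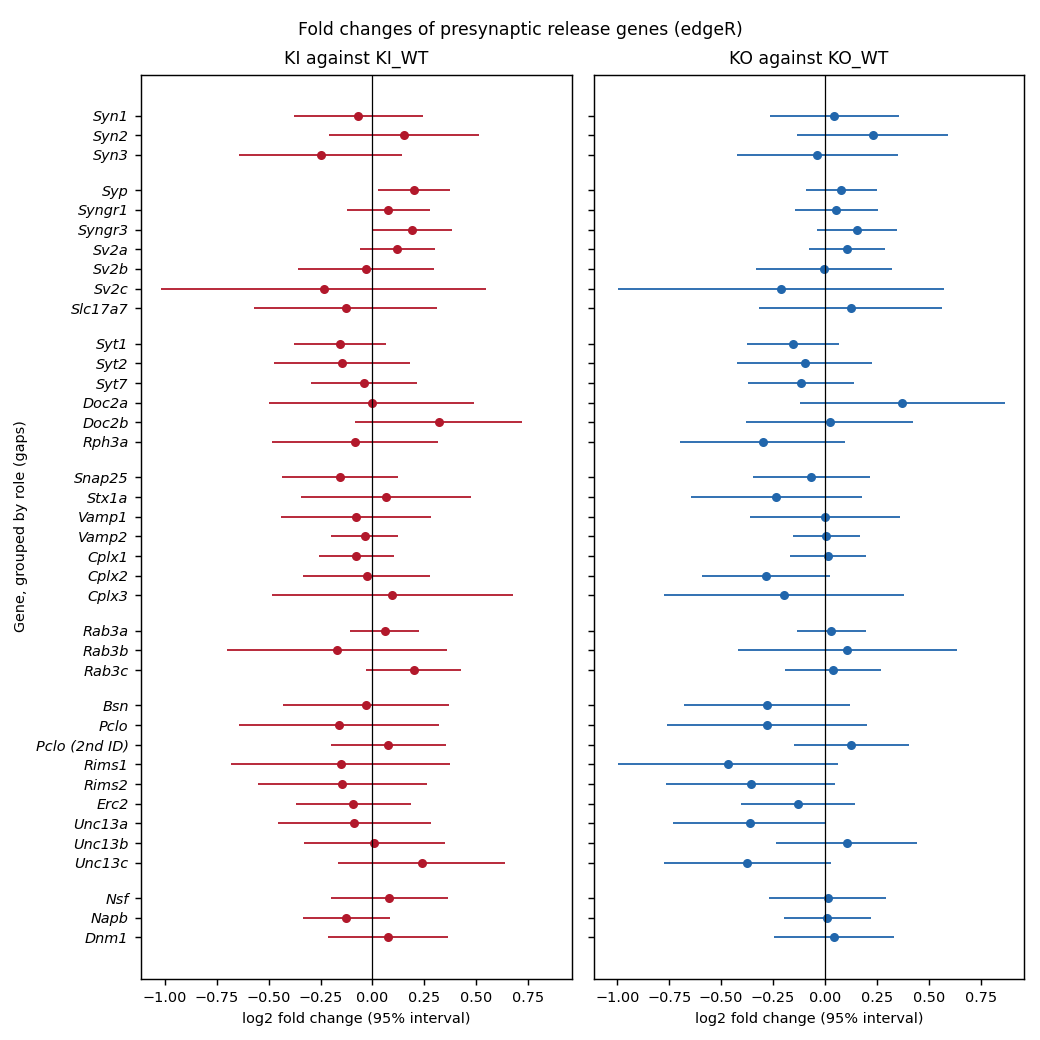
Log2 fold change with its 95% interval (edgeR) of each presynaptic release gene, KI against KI_WT on the left and KO against KO_WT on the right, rows set apart by role. On the left only Syp has an interval clear of 0, on the right none has, and the active zone genes lie mostly left of 0 in KO.

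Promoter sequences are shown for the synapsins and the active zone genes, the roles that stood furthest from their means in single libraries. RefSeq (GRCm38.p6) held 38 promoter windows of 300 bases for 29 of the 37 symbols, each from 250 bases before a transcript start to 50 after it. The windows had a median GC content of 61.7% and 17.5 CpG dinucleotides, beside 52.7% and 7 over 32851 promoters of all genes. The GC box GGGCGG, searched on both strands, occurred in 24 of the 38 windows (63.2%) and in 35.7% of all promoters. The TATA box core TATAAA occurred on either strand in 3 (7.89%) and in 13.6% of all. The full cAMP response element TGACGTCA, which reads the same on both strands, occurred in 1 (2.63%) and in 1.79% of all promoters. These motifs do not overlap one another in the windows below, where capitals mark GGGCGG, its reverse complement CCGCCC, and TGACGTCA. They are the first listed window of Syn2 and that of Syn1, the synapsins of cortex, then those of the active zone genes Pclo and Unc13a.
Syn2, chr6:115134652-115134951, plus strand: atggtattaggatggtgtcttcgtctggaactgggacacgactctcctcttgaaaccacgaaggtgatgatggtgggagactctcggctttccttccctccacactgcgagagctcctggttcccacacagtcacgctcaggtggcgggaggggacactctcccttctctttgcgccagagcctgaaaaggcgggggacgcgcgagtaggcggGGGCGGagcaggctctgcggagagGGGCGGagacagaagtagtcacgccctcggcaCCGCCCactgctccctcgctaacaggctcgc
Syn1, chrX:20920869-20921168, minus strand: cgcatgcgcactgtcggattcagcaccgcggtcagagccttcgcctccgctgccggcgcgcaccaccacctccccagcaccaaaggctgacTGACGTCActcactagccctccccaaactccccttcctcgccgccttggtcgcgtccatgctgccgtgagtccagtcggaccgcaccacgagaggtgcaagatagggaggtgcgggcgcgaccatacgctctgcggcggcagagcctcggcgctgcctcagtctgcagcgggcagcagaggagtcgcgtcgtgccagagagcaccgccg
Pclo, chr5:14514668-14514967, plus strand: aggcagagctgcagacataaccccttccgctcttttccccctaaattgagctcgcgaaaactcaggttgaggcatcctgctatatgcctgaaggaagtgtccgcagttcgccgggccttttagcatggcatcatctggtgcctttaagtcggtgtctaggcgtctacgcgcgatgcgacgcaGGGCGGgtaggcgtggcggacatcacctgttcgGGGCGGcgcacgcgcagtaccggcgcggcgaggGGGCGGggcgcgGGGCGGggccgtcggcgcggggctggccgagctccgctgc
Unc13a, chr8:71671708-71672007, minus strand: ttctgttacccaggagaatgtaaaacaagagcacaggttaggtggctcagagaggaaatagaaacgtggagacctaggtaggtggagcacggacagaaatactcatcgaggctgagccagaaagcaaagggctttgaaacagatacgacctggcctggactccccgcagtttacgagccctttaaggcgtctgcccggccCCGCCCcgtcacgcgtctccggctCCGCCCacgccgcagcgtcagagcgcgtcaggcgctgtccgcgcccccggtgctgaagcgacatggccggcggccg
The Syn2 window held 3 GC boxes, that of Pclo 4 and that of Unc13a 2. That of Syn1 held 0 GC boxes and the only cAMP response element among the 38 windows. These matches describe the letters and not binding.

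Synapsins are phosphoproteins on the cytoplasmic face of vesicles that tether them into the reserve cluster. Synapsin 2 (Syn2, ENSMUSG00000009394, chr6:115134902-115282006, plus strand) had 542, 495 and 515 CPM in KI and 494, 482 and 421 CPM in KI_WT. All 3 KI libraries lay above the KI_WT libraries, the nearest pair almost level, and the log2 fold change was 0.15 (SE 0.17; unadjusted edgeR p 0.381). Its KO libraries had 443, 775 and 489 CPM and its KO_WT libraries 464, 505 and 486. KO 2 was the highest of the 12 libraries, while the other 2 KO libraries lay below or among the KO_WT ones. The log2 fold change was 0.23 (SE 0.17), and -0.054 without KO 2. Synapsin 1 (Syn1) ran from 283 CPM in KO 1 to 458 in KO 2, with log2 fold changes of -0.068 (SE 0.14) in KI and 0.045 (SE 0.14) in KO. Synapsin 3 (Syn3, ENSMUSG00000059602, chr10:86055125-86498896, minus strand), a minor form of adult brain, had 10.7, 7.07 and 9.23 CPM in KI and 11.9, 10.03 and 10.1 in KI_WT. It had 9.67, 15.1 and 10.3 CPM in KO and 12.1, 11.5 and 12.3 in KO_WT. The lowest library was KI 2 and the highest KO 2. The log2 fold change of Syn3 was -0.25 (SE 0.18) for KI against KI_WT and -0.37 (SE 0.18; unadjusted edgeR p 0.0591) for KI against KO. The value for KI against KO was -0.14 without KO 2, and that for KI against KI_WT -0.10 without KI 2. In the difference of effects it was -0.21 (SE 0.25), and 0.0186 without KO 2.

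The balance between synapsins was also measured. Per length, Syn2 took 46.5% ± 0.83 of synapsin RPKM in KI and 42.7% ± 0.33 in KI_WT (SD, n = 3 each). Syn1 took 53.2% ± 0.79 in KI and 56.9% ± 0.30 in KI_WT. Neither pair of groups overlapped (exact permutation test, two-sided p = 0.1, the smallest that 3 against 3 allows). In KO the Syn2 share was 46.8% ± 3.2 and in KO_WT 43.9% ± 2.5 (exact permutation p = 0.3). Such shares were computed for 25 members of 10 families. They reached that smallest p in 2 shares for KI against KI_WT, 4 for KO against KO_WT, 3 for KI against KO and 1 for KI_WT against KO_WT. With groups alike, a fraction of 0.1 of the 25 shares is expected to reach it, so these counts single out no family. Shares within a family add up to the whole, so the Syn1 and Syn2 differences are largely 1 difference seen from both sides. No share can pass an adjustment.

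Synaptophysin (Syp, ENSMUSG00000031144, chrX:7638471-7653256, plus strand) is a major membrane protein of the vesicle and binds the vesicle SNARE. It had 1232, 1185 and 1065 CPM in KI and 1021, 1049.9 and 959.8 CPM in KI_WT. Every KI library was higher than every KI_WT library. KI was higher by 0.20 log2 units (SE 0.079; 95% interval 0.029 to 0.37), or 1.149-fold, with an unadjusted edgeR p of 0.0257 and an adjusted p of 0.705. In KO it had 1052, 1089 and 1071 CPM and in KO_WT 1017, 1011 and 1014, again apart but by a smaller amount (0.079, SE 0.079). The difference of the 2 effects was 0.12 (SE 0.11; unadjusted edgeR p 0.297). KI against KO gave 0.12 (SE 0.079), with overlapping libraries. Synaptogyrins are small relatives of synaptophysin. Synaptogyrin 3 (Syngr3, ENSMUSG00000007021, chr17:24685092-24689955, minus strand) had 131, 121 and 109.6 CPM in KI and 99.7, 105 and 112 in KI_WT, where KI 3 lay below KI_WT 3. It had 123, 126 and 105 CPM in KO and 108, 101.5 and 109 in KO_WT, where KO 3 fell among the KO_WT libraries. The log2 fold changes were 0.19 (SE 0.089; unadjusted edgeR p 0.0538) and 0.15 (SE 0.088). Synaptogyrin 1 (Syngr1) ran from 348 CPM in KO 1 to 421 in KO 3, with 0.076 (SE 0.092) in KI and 0.055 (SE 0.092) in KO.

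SV2 proteins are vesicle glycoproteins, and SV2A is the binding site of the antiepileptic drug levetiracetam. Sv2a (ENSMUSG00000038486, chr3:96181151-96195521, plus strand) had 487, 497 and 435 CPM in KI and 413, 415 and 479 in KI_WT. Its KO libraries had 453, 465 and 441 CPM and its KO_WT libraries 422, 404 and 435. All KO values lay above all KO_WT values, while in the knock-in line KI_WT 3 was among the KI values. The log2 fold changes were 0.12 (SE 0.084) in KI, 0.11 (SE 0.084) in KO and 0.051 (SE 0.084) for KI_WT against KO_WT. Sv2b ran from 430 CPM in KO 1 to 671 in KO 2, with -0.032 (SE 0.15) in KI and -0.0050 (SE 0.15) in KO. Sv2c, the form best known from the basal ganglia, was the most variable row. It had 30.5 CPM in KI_WT 3 and 22.1 in KO 2, against 10.1 in KO 1 and 11.1 in KO 3, a 3.01-fold range. The vesicular glutamate transporter VGLUT1 (Slc17a7, ENSMUSG00000070570, chr7:45163949-45176142, plus strand) had 742, 574 and 654 CPM in KI and 763, 750.1 and 642 in KI_WT. It had 523, 1081 and 731 CPM in KO and 752, 676 and 717 in KO_WT. KO thus held both the lowest and the highest of the 12 libraries. The log2 fold change was -0.13 (SE 0.20) in KI, 0.12 (SE 0.20) in KO and -0.25 (SE 0.20) for KI against KO. Without KO 2, KI against KO gave 0.071, and the difference of effects gave 0.063 in place of -0.25 (SE 0.29).

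Calcium sensors couple the calcium signal to fusion. Synaptotagmin 1 (Syt1, ENSMUSG00000035864, chr10:108497650-109010982, minus strand), the fast sensor of forebrain, had 1419, 1325 and 1499.7 CPM in KI and 1599.6, 1483 and 1644 in KI_WT. It had 1267, 1367 and 1626 CPM in KO and 1639, 1527 and 1573 in KO_WT. In both lines the mutant and wild-type libraries overlapped, KI 3 and KO 3 reaching the wild-type values. The log2 fold changes were -0.16 (SE 0.10; unadjusted edgeR p 0.151) in KI and -0.15 (SE 0.10; unadjusted edgeR p 0.155) in KO. Synaptotagmin 2 (Syt2, ENSMUSG00000026452, chr1:134646677-134762593, plus strand), a fast sensor of hindbrain and of fast-spiking inhibitory neurons, had 60.5, 52.3 and 42.1 CPM in KI_WT and 51.1, 47.3 and 37.9 in KO_WT. The groups overlapped, and the log2 fold change was 0.18 (SE 0.15). In a fit with a term for the animal number range it was -0.0060. Mutants had 44.8, 44.4 and 50.7 CPM in KI and 36.3, 42.1 and 49.0 in KO. Synaptotagmin 7 (Syt7), a slow sensor, ran from 189 CPM in KO 1 to 272 in KI_WT 2, with -0.040 (SE 0.12) in KI and -0.12 (SE 0.12) in KO.

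The Doc2 proteins are high-affinity calcium sensors linked to spontaneous and delayed release. Doc2a (ENSMUSG00000052301, chr7:126847416-126852705, plus strand) had 24.3, 48.2 and 29.8 CPM in KO and 30.8, 22.7 and 25.4 in KO_WT. KO 2 stood far above every other library, and KO 1 and KO 3 lay within the KO_WT span. KO against KO_WT gave 0.37 log2 units (SE 0.23; unadjusted edgeR p 0.125), and 0.043 without KO 2. KI had 28.9, 29.8 and 25.6 CPM and KI_WT 30.5, 32.6 and 21.4, a log2 fold change of -0.0041 (SE 0.23). KI against KO gave -0.28 (SE 0.23), and 0.060 without KO 2. The difference of effects gave -0.38 (SE 0.32). Doc2b (ENSMUSG00000020848, chr11:75768966-75796049, minus strand) had 49.9, 35.9 and 41.5 CPM in KI and 33.6, 35.2 and 33.3 in KI_WT, the lowest KI value lying just above the highest KI_WT value. KI against KI_WT gave 0.32 log2 units (SE 0.18; 95% interval -0.084 to 0.72). It was 0.053 with terms for the regional marker levels and 0.195 without KI 1. In the fit with marker terms, thalamus level and genotype cannot be fully told apart, as every KI library exceeded every KI_WT library in that level. The Doc2b KO libraries had 44.8, 46.3 and 29.2 CPM and its KO_WT libraries 31.5, 47.7 and 39.2, with a log2 fold change of 0.021 (SE 0.18). Both groups were widely spread here, and the difference of effects was 0.30 (SE 0.26). KI_WT against KO_WT gave -0.21 (SE 0.18), and 0.039 with a term for the animal number range. Rabphilin (Rph3a), which binds Rab3 on the vesicle, ran from 229.7 CPM in KO 1 to 425 in KO_WT 1, with -0.085 (SE 0.18) in KI and -0.30 (SE 0.18) in KO.

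The SNAREs bring the 2 membranes together. SNAP-25 (Snap25, ENSMUSG00000027273, chr2:136713453-136782428, plus strand) had 2171, 2117 and 2673 CPM in KI and 2906, 2486 and 2367 in KI_WT. KI 1 and KI 2 lay below every KI_WT library and KI 3 above 2 of them. KI against KI_WT gave -0.16 log2 units (SE 0.13) in KI. It had 2403, 2255 and 2891 CPM in KO and 2848, 2497 and 2558 in KO_WT (-0.066, SE 0.13). Syntaxin 1A (Stx1a, ENSMUSG00000007207, chr5:135023482-135051100, plus strand), its partner on the plasma membrane, had 172, 201 and 196 CPM in KI and 157, 126 and 201 in KO, with KO 3 level with the KI libraries. KI against KO gave 0.23 (SE 0.19). Its KO_WT libraries had 237, 157 and 175 CPM and its KI_WT libraries 186, 211 and 146, with log2 fold changes of -0.24 (SE 0.19) in KO and 0.065 (SE 0.19) in KI. Over the alternatives other than leaving 1 library out, the value for KI against KI_WT ran from -0.064 to 0.55. Its smallest edgeR adjusted p over all settings, 0.78, came with terms for the regional marker levels. The vesicle SNARE synaptobrevin 2 (Vamp2) was the steadiest row. It had 815, 806 and 798 CPM in KI and 819.5, 849 and 815 in KI_WT. Its KO libraries had 846, 802 and 838 CPM and its KO_WT libraries 854, 762 and 859, a 1.13-fold range over the 12. Its log2 fold changes were -0.038 (SE 0.074) in KI and 0.0058 (SE 0.074) in KO. Synaptobrevin 1 (Vamp1), the less abundant form in forebrain, ran from 122 CPM in KI_WT 3 to 182 in KO 3.

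Complexins clamp and promote the assembled SNAREs. Complexin 2 (Cplx2, ENSMUSG00000025867, chr13:54371349-54383917, plus strand) had 1185, 993 and 1271 CPM in KO and 1583, 1305 and 1311 in KO_WT. Every KO library was lower than every KO_WT library. This gave a log2 fold change of -0.28 (SE 0.14; unadjusted edgeR p 0.0661; adjusted p 0.678). In KI it had 1252, 1128 and 1255 CPM and in KI_WT 1428, 1285 and 993, with -0.028 (SE 0.14). KI_WT 3 was as low as KO 2, the lowest of the 12. KI_WT against KO_WT gave -0.18 (SE 0.14), and the difference of effects 0.26 (SE 0.20). Complexin 1 (Cplx1, ENSMUSG00000033615, chr5:108518554-108550024, minus strand) had 541, 536 and 609 CPM in KI_WT and 528, 542 and 518 in KO_WT (0.087, SE 0.084). KI had 529, 542 and 528 CPM and KO 537, 486 and 581. All groups overlapped, and KI_WT 3 was the highest library. Complexin 3 (Cplx3), which lies outside the common cortical pair, ran from 10.8 CPM in KI_WT 3 and 11.5 in KO 1 to 25.2 in KO_WT 1. Its log2 fold change was 0.10 (SE 0.27) in KI and -0.20 (SE 0.27) in KO. Over the alternatives other than leaving 1 library out, the value for KI against KI_WT ran from -0.13 to 0.57. The smallest edgeR adjusted p there over all settings, 0.82, came with terms for the regional marker levels.

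Rab3 GTPases mark vesicles that are ready to dock. Rab3a, the main form, stayed between 287 and 334 CPM, with 0.058 (SE 0.076) in KI and 0.031 (SE 0.076) in KO. Rab3c (ENSMUSG00000021700, chr13:110054187-110280996, minus strand) had 755, 636 and 678 CPM in KI and 625, 608 and 569.5 in KI_WT, all 3 KI libraries lying above the KI_WT ones. This gave a log2 fold change of 0.20 (SE 0.11; unadjusted edgeR p 0.0837; adjusted p 0.733), and -0.0082 in a fit with terms for the thalamus, olfactory bulb and choroid plexus marker levels. As for Doc2b, thalamus level and genotype cannot be fully told apart in that fit. The Rab3c KO libraries had 654, 607 and 745 CPM and its KO_WT libraries 576, 689 and 688 (0.039, SE 0.11). KI_WT against KO_WT gave -0.12 (SE 0.11). Rab3b (ENSMUSG00000003411, chr4:108879063-108943324, plus strand) had 40.7, 44.4 and 74.2 CPM in KI_WT and 42.5, 40.6 and 51.7 in KO_WT. KI_WT 3 stood above all others, with KO 1 next. KI_WT against KO_WT gave 0.24 log2 units (SE 0.24), and -0.074 without KI_WT 3. KI had 48.5, 50.3 and 42.8 CPM and KO 67.5, 37.4 and 40.4.

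The active zone scaffold and the priming factors included the lowest fold changes of KO. Of 9 rows, 7 were lower and 2 higher in KO than in KO_WT, with a median log2 fold change of -0.281 beside 0.0076 over all genes, of which 52% were higher. None of the 9 was called. Without KO 1 the median was -0.0723, and with terms for the regional marker levels -0.15. For KI against KI_WT 6 were lower and 3 higher (median -0.0867), where 48.7% of all genes were higher. Without KI_WT 1, 7 of the 9 were higher there (median 0.0196). In KI_WT against KO_WT all 9 were lower (median -0.106), where 50.1% of all genes were higher, and without KI_WT 3 only 4 of 9 were lower (median 0.00385). RIM1 (Rims1, ENSMUSG00000041670, chr1:22286251-22805994, minus strand), which tethers calcium channels and vesicles, had 185, 191 and 336 CPM in KO and 389, 287 and 308 in KO_WT. KO 1 and KO 2 were lower than any other library, and KO 3 was higher than 2 of the KO_WT libraries. KO against KO_WT gave -0.47 log2 units (SE 0.24; 95% interval -0.9961 to 0.061; unadjusted edgeR p 0.0779). KI had 233, 242 and 315 CPM and KI_WT 359, 305 and 213, with -0.15 (SE 0.24). RIM2 (Rims2) ran from 51.2 CPM in KO 1 to 104 in KO_WT 1, with -0.36 (SE 0.19) in KO and -0.14 (SE 0.19) in KI.

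Munc13 proteins prime vesicles by opening syntaxin. Munc13-1 (Unc13a, ENSMUSG00000034799, chr8:71624417-71671757, minus strand), the main cortical form, had 172, 229 and 294 CPM in KO and 342, 278 and 275 in KO_WT. KO 1 and KO 2 lay below and KO 3 within the KO_WT values. On the log2 scale the fold change was -0.36 (SE 0.17; unadjusted edgeR p 0.0538; adjusted p 0.678), and -0.19 without KO 1. KI had 249, 243 and 287 CPM and KI_WT 311, 275 and 241 (-0.087, SE 0.17), and the difference of effects was 0.28 (SE 0.24). Munc13-3 (Unc13c, ENSMUSG00000062151, chr9:73479422-73968966, minus strand), a form best known from cerebellum, gave the largest difference of effects in size. It had 104, 91.8 and 112 CPM in KI and 72.0, 84.8 and 104 in KI_WT, with KI_WT 3 level with the KI libraries. It had 109, 60.4 and 80.4 CPM in KO and 115, 111 and 98.2 in KO_WT, with KO 1 level with the KO_WT libraries. The log2 fold changes were 0.24 (SE 0.18) in KI and -0.37 (SE 0.18; unadjusted edgeR p 0.066) in KO. Their difference was 0.61 (SE 0.26; 95% interval 0.042 to 1.18; unadjusted edgeR p 0.0375; adjusted p 0.918). It stayed between 0.43 and 0.86 with each library left out. KI against KO gave 0.30 (SE 0.18) and KI_WT against KO_WT -0.31 (SE 0.18). Munc13-2 (Unc13b) ran from 39.5 CPM in KI_WT 3 to 65.8 in KO 2, with 0.0089 (SE 0.16) in KI and 0.10 (SE 0.15) in KO.

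Bassoon and Piccolo are giant scaffold proteins of the active zone. Bsn (ENSMUSG00000032589, chr9:108096022-108190384, minus strand) had 375, 282 and 348 CPM in KI and 203, 318 and 359.7 in KO, where KO 1 was the lowest of the 12 libraries. KI against KO gave 0.19 (SE 0.18), and -0.0115 without KO 1. Its KI_WT libraries had 396, 327 and 305 CPM and its KO_WT libraries 387, 347.4 and 336, with log2 fold changes of -0.033 (SE 0.18) in KI and -0.28 (SE 0.18) in KO. The value in KO was -0.0723 without KO 1. Pclo (ENSMUSG00000061601, chr5:14514918-14863459, plus strand) had 132, 253 and 256 CPM in KO and 278, 254 and 244 in KO_WT. Only KO 1 lay below the KO_WT libraries by more than their spread. On the log2 scale the fold change was -0.28 (SE 0.22), and -0.025 without KO 1. In KI it was -0.16 (SE 0.22). The second row with the symbol Pclo (ENSMUSG00000098239), absent from the GENCODE annotation used, did not follow the first. It had 27.4, 30.3 and 26.0 CPM in KO and 23.1, 26.8 and 26.7 in KO_WT (0.13, SE 0.13). How reads were divided between both IDs is not given in the sources used here. ELKS2 (Erc2) ran from 151 CPM in KI 2 to 221 in KO_WT 3, with -0.092 (SE 0.13) in KI and -0.13 (SE 0.13) in KO.

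Beta-SNAP (Napb, ENSMUSG00000027438, chr2:148693985-148732467, minus strand), the neuronal adaptor of NSF, had 654, 579 and 670.5 CPM in KI and 699, 643 and 735 in KI_WT, with KI 1 and KI 3 inside the KI_WT span and KI 2 below it. KI against KI_WT gave -0.13 log2 units (SE 0.10). Its KO libraries had 641, 741 and 676 CPM and its KO_WT libraries 664, 636 and 744. KI against KO gave -0.11 (SE 0.10), and the difference of effects -0.14 (SE 0.14). Nsf, the ATPase, ran from 624 CPM in KO 1 to 830.5 in KO 2, with 0.080 (SE 0.13) in KI and 0.013 (SE 0.13) in KO. Dynamin 1 (Dnm1), the neuronal fission GTPase, ran from 536 CPM in KO 1 to 781 in KO 2, with 0.074 (SE 0.13) and 0.041 (SE 0.13). Dnm1, Snap25 and Napb share chromosome 2 with Grin1, at 6.99, 111 and 123 Mb from it.

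Levels differed between single libraries for many of these genes. In 22 of 38 rows the highest library was over 1.5 times the lowest, with a median ratio of 1.60. The median coefficient of variation within groups was 14.4%, where the biological coefficient of variation of the whole fit was 15.7%. The counts of rows in this paragraph were not made over all tested genes, so they do not set the release genes apart from others. KO 1 was the lowest of the 12 libraries for 16 rows and the highest for 0. Relative to the mean of the 12 libraries its active zone rows had a median log2 deviation of -0.56, with Pclo at -0.79, Bsn at -0.69, Unc13a at -0.61, Rims2 at -0.61 and Rims1 at -0.56. Rab3b deviated the other way (0.51). KO 2 was the highest for 10 rows and the lowest for 6. Its synapsins had a median deviation of 0.50, and Doc2a (0.75), Slc17a7 (0.61) and Sv2c (0.53) were also high. Unc13c (-0.63), Rims1 (-0.52) and Stx1a (-0.50) were low there. KO 3 shared neither pattern, with 29 of 38 rows above their mean. It was also the only KO library with Y-linked expression, and the part of sex in these patterns was not tested. KI_WT 3 was the lowest library for 8 rows and KO_WT 1 the highest for 8.

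**Figure D3:**
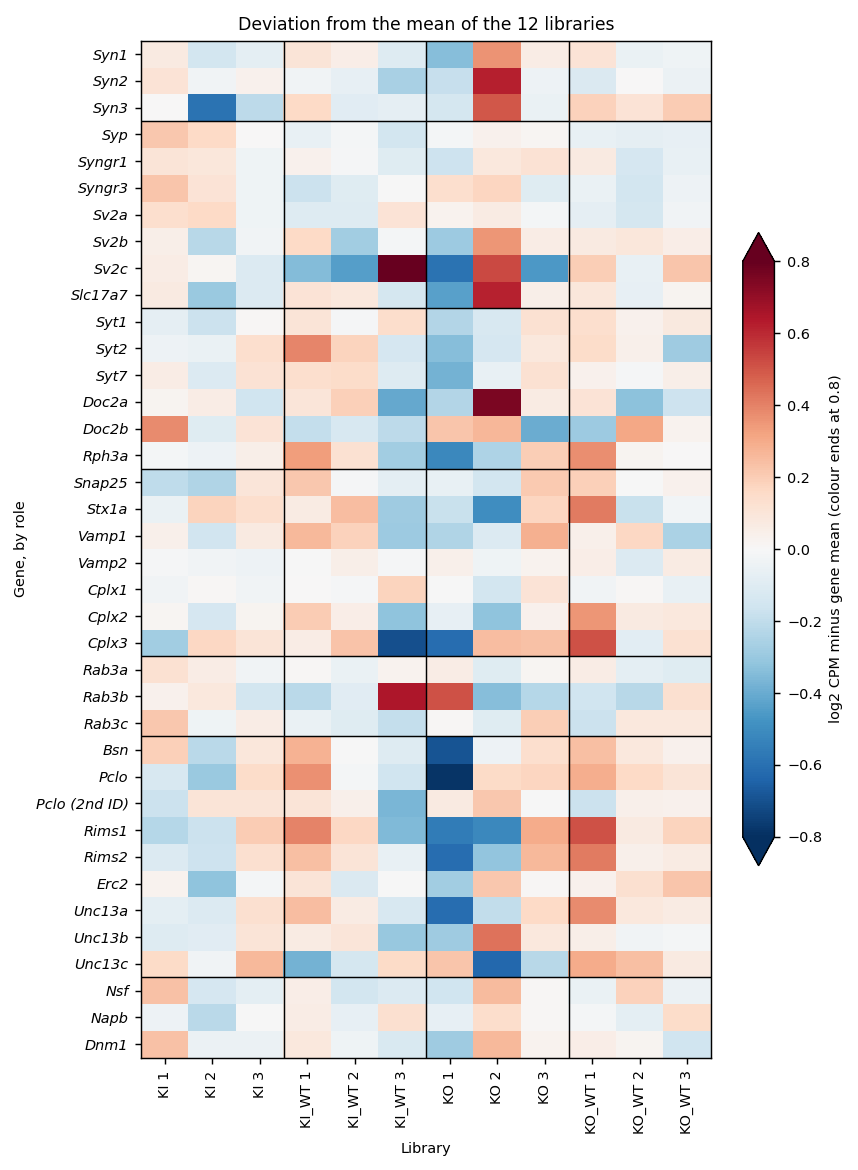
Heat map of log2 CPM minus the mean of the 12 libraries for each presynaptic release gene (rows, by role) in each library (columns, by group); red is above the mean and blue below, and the colour ends at 0.8. KO 1 is blue for 7 of 9 active zone rows (all but Unc13c and the second Pclo row), KO 2 is red for the synapsins, Slc17a7 and Doc2a, and KO 3 and the KO_WT libraries show neither pattern.

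Other measures moved with these libraries. KO 1 had the lowest summed level of cortical excitatory markers (245.5 CPM), with KI_WT 3 (255.8 CPM) next. KO 1 had the highest sum of the 8 striatal markers tested (1050 CPM), with KI_WT 3 (1024 CPM) and KO_WT 1 (973 CPM) close to it. It also held 181 CPM of hypothalamic markers, against 4.56 to 156 CPM elsewhere. KO 2 had the lowest sum of 8 oligodendrocyte markers (4818 CPM, against 5985 to 11413 in the other 11), and the lowest of the striatal markers (345.4 CPM). Levels by transcript length differed between libraries too. In KO 1, rows with a counted length of at least 7000 bases (13 rows) had a median deviation of -0.242 and shorter ones (25 rows) -0.180. Counted lengths were worked out from the deposited counts and RPKM values, which left out tested genes of low RPKM. Over the tested genes with such a length the median deviation in KO 1 was -0.146 at 7000 bases or more (2234 genes). It was 0.0327 below that (11786 genes). For the rows the split was not particular to KO 1. The longer and shorter rows had -0.0989 and 0.0845 in KO 2, and -0.155 and -0.0251 in KI 2. In other libraries, KO_WT 1 among them (0.147 and 0.0599), the longer rows were the higher ones. The part of these measures in the low and high values of the release genes was not tested.

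The levels of the release genes were also set against the olfactory bulb, thalamus and choroid plexus marker levels in a single fit beside the 4 group means. With the thalamus level 0 of 38 rows had an unadjusted edgeR p under 0.05, where 5.53% of all genes had one, and 0 were called, where 0.0229% were. With the choroid plexus level 3 rows had one, Rims2 and Syt1 negative and the second Pclo row positive, where 5.24% of all genes had one, and 0 were called, where 0.178% were. With the olfactory bulb level 11 of 38 rows had an unadjusted p under 0.05, where 13.6% of all genes had one. Of these 10 were negative, where 6.89% of all genes were negative with such a p. They were Vamp1, Syt2, Rph3a, Rims2, Unc13a, Cplx2, Rims1, Stx1a, Bsn and Cplx3, and the positive one was Rab3b. After adjustment 0 rows were called, where 0.516% of all genes were.

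Vamp1 had the smallest p. In the libraries highest in bulb markers its level was 126 CPM (KO 1), 122 CPM (KI_WT 3) and 125 CPM (KO_WT 3), against 134 to 182 CPM in the other 9. Its slope was -0.093 log2 units per log2 unit of marker level (SE 0.020; unadjusted edgeR p 0.000785; adjusted p 0.0931). Without KO 2 it was -0.091 (SE 0.019) with an edgeR adjusted p of 0.0474, the sole case among all fits run in which a row was called. Syt2 had a slope of -0.097 (SE 0.022; edgeR adjusted p 0.111) and Rph3a of -0.12 (SE 0.030; edgeR adjusted p 0.136). Rab3b had a slope of 0.12 (SE 0.039; edgeR adjusted p 0.236). In the fit with all 3 marker levels the KO against KO_WT log2 fold changes were -0.13 for Rims1, -0.15 for Unc13a and -0.052 for Cplx2, against -0.47, -0.36 and -0.28 without them. With a term for the animal number range instead they were -0.62, -0.53 and -0.31, and without KO 3 they were -0.80, -0.57 and -0.36. The marker levels come from the same libraries as the genes, and the slopes describe what varied together. The fit held 3 marker terms beside 4 group means on 12 libraries, so fewer residual degrees of freedom remained than with group means alone. Fold changes from it are given without SE. In thalamus level KO and KO_WT overlapped, but every KI library lay above every KI_WT library. For KI against KI_WT the fit thus cannot fully separate that level from genotype. Whether tissue content accounts for the shifted fold changes was not tested.

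**Figure D4:**
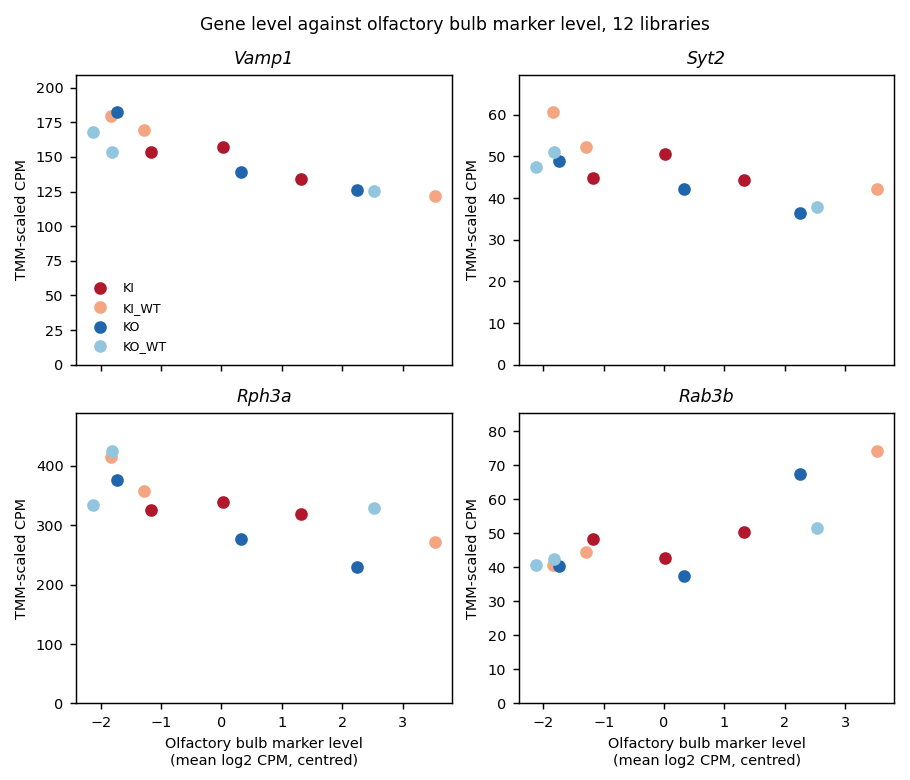
TMM-scaled CPM of Vamp1, Syt2, Rph3a and Rab3b (vertical axes, from 0) against the mean log2 CPM of the 7 olfactory bulb markers, centred on the 12 libraries (horizontal axes), 1 point a library, coloured by group. To the right stand KO 1, KI_WT 3 and KO_WT 3, the 3 libraries lowest in Vamp1 (126, 122 and 125 CPM) and highest in Rab3b. Rph3a is low in KO 1 (230 CPM) and KI_WT 3 (271 CPM) but not in KO_WT 3 (329 CPM).

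Further genes of the release pathway outside the 37 symbols were counted from 5 lists with 105 genes, of which 104 were tested. In each of the 5 comparisons 0 of 104 were called. At unadjusted edgeR p under 0.05 there were 4 higher and 1 lower for KI against KI_WT, where 6.96% of all genes passed in either direction, and 6 and 3 for KO against KO_WT (7.22% of all genes). There were 2 and 2 for KI against KO (5.43% of all genes), 1 and 1 for KI_WT against KO_WT (1.96%), and 3 and 1 for the difference of effects (5.26%). The other vesicle proteins and transporters (22 genes) were higher for 17 in KI (median 0.0820), where 48.7% of all genes were higher. For KO 14 were higher (median 0.0472), where 52% of all genes were. The vesicular glutamate transporter VGLUT2 (Slc17a6), which thalamic projections carry, had 93.1, 72.5 and 67.6 CPM in KI and 46.5, 55.8 and 53.8 in KI_WT. It had 61.8, 79.1 and 103 CPM in KO and 36.0, 56.4 and 41.8 in KO_WT. In both lines every mutant library lay above every wild-type one. The log2 fold changes were 0.58 (SE 0.20; edgeR adjusted p 0.705) and 0.86 (SE 0.20; edgeR adjusted p 0.678). Thalamus markers were higher in every KI than in every KI_WT library, as given above. In the KO line they summed to 101.3 to 272 CPM in KO. KO_WT 1 and KO_WT 3 lay below that, at 89.0 and 89.7 CPM, and KO_WT 2 lay within it, at 225 CPM. Their part in this was not tested. VAMP7 (Vamp7), a SNARE of late endosomes and lysosomes, gave -0.26 (SE 0.089) in KI and 0.23 (SE 0.089) in KO, with a difference of -0.49 (SE 0.13; edgeR adjusted p 0.918). It gave -0.29 (SE 0.089) for KI against KO and 0.20 (SE 0.089) for KI_WT against KO_WT.

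In the other lists, the gene with the smallest p in each comparison is given. Among synaptotagmins and calcium-dependent factors, Syt17 was at 0.31 (SE 0.12) in KI and Cadps2, a dense-core vesicle priming factor, at -0.29 (SE 0.16) in KO. In Syt17, KI against KO gave 0.19 (SE 0.11) and the difference of effects 0.33 (SE 0.16). Syt11 was at -0.11 (SE 0.081) for KI_WT against KO_WT. Among active zone and Rab cycle genes (28), 23 were lower in KO than in KO_WT (median -0.0655), where 52% of all genes were higher. Of the 28, 14 were lower in KI than in KI_WT, where 48.7% of all genes were higher. In KI_WT against KO_WT 24 were lower, where 50.1% of all genes were higher. The single genes were Lin7a at -0.33 (SE 0.15) in KI, Rabac1 at 0.29 (SE 0.11) in KO, Rab27b at -0.25 (SE 0.12) for KI against KO, Fbxo45 at -0.13 (SE 0.084) between the wild types and Erc1 at 0.35 (SE 0.18) in the difference of effects. Among 24 endocytosis genes, Ap2s1, a subunit of the clathrin adaptor AP-2, was at 0.22 (SE 0.085) in KI and Dnm2, the widely expressed dynamin, at -0.23 (SE 0.076) in KO and -0.17 (SE 0.076) for KI_WT against KO_WT. The scaffold intersectin 1 (Itsn1) was at 0.20 (SE 0.082) for KI against KO and 0.31 (SE 0.12) in the difference. Beta-synuclein (Sncb) was at 0.24 (SE 0.10) for KI against KO, and VGLUT3 (Slc17a8) at -0.39 (SE 0.25) for KI_WT against KO_WT and 0.62 (SE 0.35) in the difference. None passed the edgeR test, with adjusted p of 0.678 or more.

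Within families, per length, 1 form often dominated. Syt1 took 96.7% of the 2 fast synaptotagmins, Vamp2 92.6% of the 2 synaptobrevins, Rims1 71.3% of the 2 RIMs, Rab3a 60.5% of the 3 Rab3 forms and Unc13a 59.1% of the 3 Munc13 forms, on average over the 12 libraries. The Cplx1 share of the complexins was 50.6% ± 0.847 in KO and 45.5% ± 2.91 in KO_WT, and that of Cplx2 was 48.1% ± 1.22 in KO and 53.2% ± 2.71 in KO_WT (SD, n = 3 each). In both shares, which mirror each other, the groups were apart (exact permutation test, two-sided p = 0.1, the smallest possible here). The Unc13b share of the Munc13 forms was 12.4% ± 3.42 in KO and 9.21% ± 0.652 in KO_WT (SD, n = 3 each; exact permutation p = 0.1). The Syn3 share of the synapsins was 0.445% ± 0.0299 in KO and 0.497% ± 0.0191 in KO_WT (SD, n = 3 each; exact permutation p = 0.1).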

How the data were processed

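Poly(A) RNA of cortex from 12 mice was sequenced, 3 in each of 4 groups. The authors deposited gene counts and RPKM values. Per the submitters' processing notes, bcl2fastq 2.17, STAR 2.5.0c and Cufflinks 2.2.1 were used; the counter, annotation and strand setting are not given in the sources used here. The deposited counts were tested with edgeR 4.0.16 in R 4.3.3 (quasi-likelihood, TMM scaling, all 12 libraries in 1 fit with group means, 8 residual degrees of freedom, low-count filter filterByExpr, 17441 genes tested, Benjamini-Hochberg 0.05). The biological coefficient of variation was 15.7%. The deposited RPKM values served for levels between genes and, on log2(RPKM + 0.1), for limma 3.58.1. DESeq2 1.42.0, other filters and scalings, marker terms and each library left out were alternatives. The scripts were tested on simulated counts for KI against KI_WT, with 200 changed genes at each fold. They recovered 23.5% of 1.5-fold changes, 63.5% of 2-fold and 88% of 4-fold changes, with 2, 5 and 4 false calls. Changes of 1.5-fold would thus mostly be missed. Libraries held 31790970 to 36514024 counts, and replicate pairs differed by 14.9 to 81.8 times the counting noise. Positions are from GENCODE on GRCm38 (40254 of 41388 IDs matched). Values per library were given for the 4 members with the smallest p in each direction of each comparison, and for others chosen after their values were seen. The members and lists were chosen with earlier results of these data known.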

Additional observations from a re-analysis of the deposited data

How the results depend on the processing

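In the 5 group comparisons 0 of 38 rows were called under any setting run. The number of genes called over the whole table did move. With DESeq2 it was 2 for KI against KI_WT, 5 for KO against KO_WT, 12 for KI against KO, 1 for KI_WT against KO_WT and 5 for the difference of effects. With the compared groups only it was 1, 1, 0 and 1 in the first 4. Without a filter on low counts it was 2 for KI against KO and 11 for the thalamus level. With limma on log2(RPKM + 0.1) without a filter it was 3 for KO against KO_WT, 4 for KI against KO and 3 for the difference. In the difference it was 0 with regional marker terms and 0 with a Y-linked term. Without the 3 libraries highest in olfactory bulb markers, a setting chosen after seeing the data, it was 2 for KO against KO_WT and 0 for the difference.

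With each library left out, genes called ranged from 1 to 6 for KO against KO_WT (6 without KO 3), 0 to 1 for the difference, 0 to 13 for the thalamus level, 6 to 212 for the olfactory bulb level and 16 to 43 for the choroid plexus level. Rows called for the bulb level ranged from 0 to 1 (1 without KO 2). The median of the rows for KO against KO_WT ranged from -0.0923 to 0.0121, and for KI against KI_WT from -0.0812 to 0.0562 (0.0562 without KI_WT 1). With a term for the animal number range the median for KO against KO_WT was -0.0841, and with limma on log2(RPKM + 0.1) 0.0541, against 0.0037 as reported. For KI_WT against KO_WT it was -0.0294 as reported and -0.164 with a term for the animal number range. KO 1, KO_WT 2 and KO_WT 3 have lower animal numbers than the other 9. Terms for regional marker levels gave 0.0602 in this comparison, with 23 of 38 rows higher. Leaving out KO_WT 1 gave 0.0198, with 24 of 38 higher. The cause of these shifts was not tested. No paired analysis was possible because the labels and animal numbers give no pairing across groups. Replicate numbers only follow accession order. With 3 mice a group, the 95% interval of the median row reached 0.326 log2 units to either side for KI against KI_WT.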
